A study of Mus musculus with 10 samples.

Results

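Transcripts of the NADPH oxidase of phagocytes were followed through 5 genes, Cybb, Cyba, Ncf1, Ncf4 and Rac2, in 10 RNA-seq libraries of myeloid cells from mice with MC17-51 fibrosarcomas, a transplantable mouse tumor line. The genes were taken by name from a deposited table of 55421 Ensembl genes. All 5 were present and all 5 passed the filter on low counts in each comparison. The mice, 8 to 12 weeks of age at implantation under the skin, were Shp2f/f, which carry loxP sites in Ptpn11 (the gene of the phosphatase SHP-2), or Shp2f/fLysMcre, which carry the same floxed gene and also Cre at the lysozyme M locus Lyz2, active in neutrophils, monocytes and macrophages, so that Cre itself goes with the deletion. All mice carried the tumor, and cells were collected on day 15 with no other treatment. Myeloid-derived suppressor cells (MDSC) were isolated from the spleen with magnetic beads, as GR1hi Ly6G+ Ly6C- cells by the study's methods, and tumor-associated macrophages (TAM) were sorted from the tumor as live CD45+ CD11b+ F4/80+ Ly6G- cells. There were 2 libraries of MDSC Shp2f/f, 2 of MDSC Shp2f/fLysMcre, 3 of TAM Shp2f/f and 3 of TAM Shp2f/fLysMcre. The sources used here do not say whether a library came from 1 mouse or a pool, and p-values therefore measure the spread between these libraries, which may be partly technical.

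The oxidase takes electrons from NADPH in the cytosol and passes them across the membrane to oxygen, making superoxide in the phagosome or outside the cell. Its core sits in the membrane as a pair of proteins, gp91phox from Cybb, which carries the electrons, and p22phox from Cyba, which stabilizes it. In resting cells the cytosolic subunits, among them p47phox (Ncf1) and p40phox (Ncf4), are kept apart from this core. Upon activation p47phox is phosphorylated and the cytosolic subunits move to the membrane, where the GTPase Rac2 helps to switch the enzyme on. Loss of the subunits causes chronic granulomatous disease. In tumor-bearing hosts, superoxide and peroxide from this enzyme are among the means by which neutrophil-like MDSC restrain T cells. The data are transcript counts and hold no measurement of enzyme activity or protein.

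In the GRCm38 annotation Cybb (ENSMUSG00000015340) lies on chromosome X at 9435252 to 9487771 on the minus strand, and Cyba (ENSMUSG00000006519) on chromosome 8 at 122424776 to 122432930 on the minus strand. Ncf1 (ENSMUSG00000015950) lies on chromosome 5 at 134220053 to 134229625 on the minus strand. Ncf4 (ENSMUSG00000071715) at 78244801 to 78262580 on the plus strand and Rac2 (ENSMUSG00000033220) at 78559167 to 78572783 on the minus strand are both on chromosome 15. Of the exon bases of Ncf1, 408 of 3663 lie under exons of Gtf2ird2 on the opposite strand. The library kit keeps strand, but the setting used for counting was not stated. Gtf2ird2 itself stood at 6.42 to 7.82 CPM, the reads of a gene scaled to a common library total, in all 10 libraries. Stretches of 42 bases, the read length, that also occur in transcripts of another gene made up 8.43% of those of Ncf1, 4.17% of those of Cyba, 2.97% of those of Rac2 and 0% of those of Cybb and Ncf4.

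The 250 bases before the RefSeq transcription start are shown for the 3 members with an entry in the promoter table used here (RefSeq on GRCm38.p6, minus strand, 5′ to 3′), because 3 genes that were raised together in TAM can then be compared at their starts. Capitals mark GGAA, the core letters of ETS-family sites such as those of PU.1, or TTCC, the same core on the other strand.
Cybb, chrX:9469325-9469574, inside the longer gene model of the annotation above: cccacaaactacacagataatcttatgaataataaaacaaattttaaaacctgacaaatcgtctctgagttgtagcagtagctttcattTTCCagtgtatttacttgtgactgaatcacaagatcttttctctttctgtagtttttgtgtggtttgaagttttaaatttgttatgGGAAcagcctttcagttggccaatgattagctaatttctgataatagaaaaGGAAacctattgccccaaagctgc
Cyba, chr8:122432941-122433190: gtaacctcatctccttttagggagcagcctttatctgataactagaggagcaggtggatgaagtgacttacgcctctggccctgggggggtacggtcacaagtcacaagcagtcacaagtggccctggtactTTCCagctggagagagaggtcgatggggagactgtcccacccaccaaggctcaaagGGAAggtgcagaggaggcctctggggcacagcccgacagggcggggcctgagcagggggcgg
Ncf1, chr5:134229626-134229875: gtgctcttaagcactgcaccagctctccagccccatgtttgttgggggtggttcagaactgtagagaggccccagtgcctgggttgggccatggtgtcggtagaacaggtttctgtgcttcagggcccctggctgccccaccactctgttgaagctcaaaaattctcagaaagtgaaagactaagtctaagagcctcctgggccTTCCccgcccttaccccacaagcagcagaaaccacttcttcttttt
The 6-letter PU.1-type string GAGGAA, searched on both strands, was in none of the 3 windows, and 23.3% of the 32851 mouse promoter windows of this length held it. The shorter core GGAA, searched on both strands after the windows had been read, overlaps that string. It occurred 3 times in Cybb, starting 161, 75 and 24 bases before the start, 2 times in Cyba, at 118 and 62 bases, and 1 time in Ncf1, at 46 bases. In all windows 93.4% held the core, with a median of 3 matches, so the 3 genes had the median number or fewer. The windows differed in base composition, with a G and C content of 34% in Cybb, 54.4% in Ncf1 and 60% in Cyba.

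The libraries held 28844660 to 38222998 counted reads. Ptpn11 was at 119 to 122 CPM in TAM Shp2f/f and at 48.8 to 51.9 CPM in TAM Shp2f/fLysMcre (log2 fold change -1.24, SE 0.0386, adjusted p = 2.96e-09, edgeR). In MDSC it was at 119 and 104 CPM in Shp2f/f and at 99.9 and 82.7 CPM in Shp2f/fLysMcre (log2 fold change -0.29, SE 0.143, adjusted p = 0.361), so at the level of whole-gene counts the deletion did not pass the test there. Without MDSC Shp2f/fLysMcre replicate 1 it was called (-0.46, adjusted p = 0.0361), but the spread then came from the Shp2f/f pair alone and 4406 genes were called against 633. Reads from parts of Ptpn11 outside the floxed segment count toward these values. Lyz2, looked at after its values were seen because Cre sits in it, averaged 9675 CPM in MDSC Shp2f/f and 47.2 CPM in MDSC Shp2f/fLysMcre. In TAM Lyz2 averaged 3458 CPM in Shp2f/f and 10.7 CPM in Shp2f/fLysMcre. Low Lyz2 RNA thus went with the genotype in both cell types and cannot be told apart from the deletion. The 8 neutrophil markers summed to 9453 to 25054 CPM in MDSC and 313 to 472 CPM in TAM, and the 8 macrophage markers to 1888 to 2476 CPM in MDSC and 9110 to 12897 CPM in TAM, none of them at 0. The 5 monocyte markers, genes of cells that the MDSC gate would leave out, summed to 6728 and 7255 CPM in MDSC Shp2f/f and to 4416 and 6008 CPM in MDSC Shp2f/fLysMcre. In bulk samples, fewer cells of a type and less RNA per cell cannot be told apart.

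Levels of different genes were compared per length, in TPM, which divides reads by exon length before scaling each library to one total. Cyba had by far the highest TPM of the 5 in every group, 1871 ± 192 (SD, n = 2) in MDSC Shp2f/f, 1688 ± 173 (n = 2) in MDSC Shp2f/fLysMcre, 1469 ± 40.6 (n = 3) in TAM Shp2f/f and 1704 ± 32.7 (n = 3) in TAM Shp2f/fLysMcre. Ncf1 had the lowest mean in every group, 312 ± 7.94 and 456 ± 53.1 in MDSC and 113 ± 4.03 and 136 ± 1.37 in TAM, in the order Shp2f/f and Shp2f/fLysMcre. In TAM the order between them was the same in both genotypes, with Ncf4 at 333 ± 11.02 and 328 ± 2.12, Rac2 at 234 ± 9.18 and 258 ± 6.77 and Cybb at 168 ± 4.70 and 200 ± 13.9 TPM. In MDSC the middle 3 were closer together. Rac2 was at 664 ± 8.01 and 805 ± 66.4, Ncf4 at 556 ± 23.1 and 546 ± 13.2 and Cybb at 529 ± 49.4 and 592 ± 227 TPM. Which of Cybb and Ncf4 was higher changed between the libraries of each genotype. In Shp2f/fLysMcre Cybb was at 752 and 432 TPM, below Rac2 (852 and 758) and above Ncf1 (494 and 419) in both libraries. With the longest transcript as length, Cybb was above Rac2 in replicate 1 (721 against 682 TPM) and below Ncf1 in replicate 2 (410 against 413 TPM). These orders were not tested. With the longest transcript as the length in place of all exons, Ncf4 stood above Rac2 in MDSC Shp2f/f (596 ± 19.8 against 527 ± 1.96 TPM), while Cyba kept the highest and Ncf1 the lowest mean in all 4 groups.

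**Figure D1:**
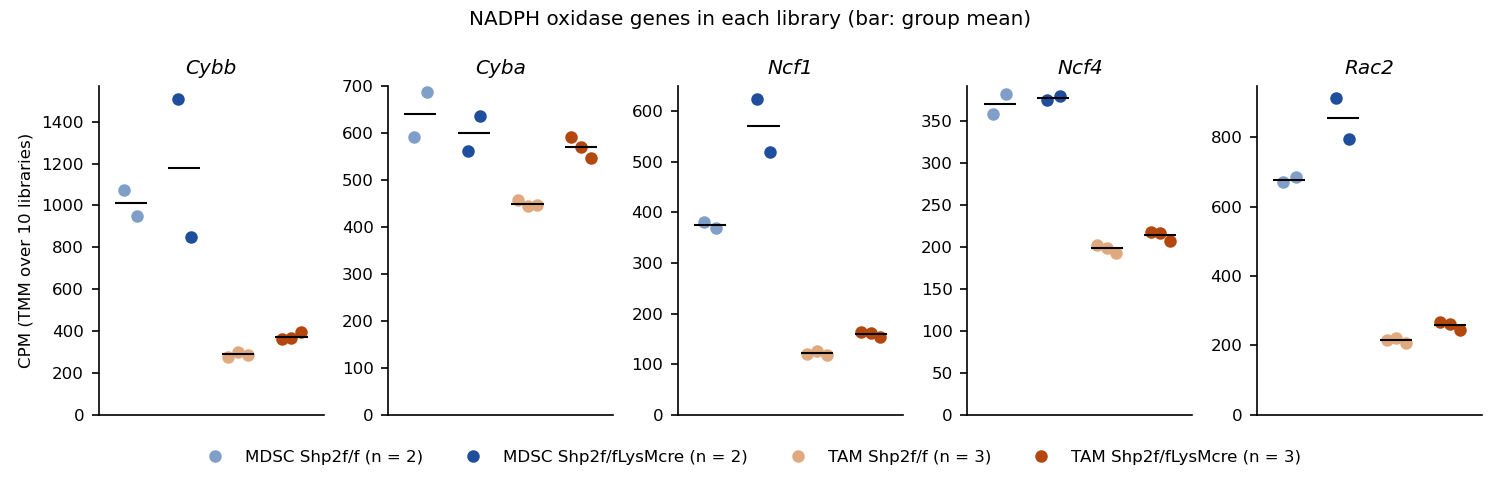
CPM of Cybb, Cyba, Ncf1, Ncf4 and Rac2 on a linear axis from 0, scaled by TMM over all 10 libraries, with 1 point per library and a bar at the mean of each group. The TAM libraries lie below the MDSC libraries for Cybb, Ncf1, Ncf4 and Rac2, while for Cyba the TAM Shp2f/fLysMcre libraries (548 to 591 CPM) overlap with the MDSC libraries (562 to 688 CPM).

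The first question was whether loss of SHP-2 in myeloid cells goes with a different level of oxidase transcripts in macrophages of the tumor. In TAM, 4 of the 5 members rose in Shp2f/fLysMcre, Cybb 1.26-fold, Cyba 1.237-fold, Ncf1 1.29-fold and Rac2 1.17-fold, and Ncf4 did not pass the test. Over all genes tested in TAM, 50.2% of 14446 passed at an adjusted p under 0.05 and 23.9% passed as higher, so a call in this comparison was common. The 5 members had a median log2 fold change of 0.31, beside -0.01 over all genes tested.

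Of the membrane pair, Cybb was at 273, 291 and 282 CPM (scaled within TAM, as are the values that follow) in Shp2f/f and at 344, 347 and 379 CPM in Shp2f/fLysMcre. The lowest Shp2f/fLysMcre library was above the highest Shp2f/f library, and the log2 fold change was 0.34 (SE 0.0469, adjusted p = 0.000119, edgeR). Cyba was at 451, 433 and 440.2 CPM in Shp2f/f and at 567, 543 and 528 CPM in Shp2f/fLysMcre, again without overlap, with a log2 fold change of 0.31 (SE 0.0393, adjusted p = 6.48e-05). Both genes of the membrane core thus moved by a similar amount, and the TPM ratio of Cyba to Cybb within a library was 8.75 ± 0.450 (SD, n = 3) in Shp2f/f and 8.58 ± 0.724 (n = 3) in Shp2f/fLysMcre, with overlapping ranges. Cybb is on chromosome X, and Xist, the RNA made from an inactive X chromosome, differed between the same groups, at 4.70 to 17.9 CPM in TAM Shp2f/f and 200.3 to 358 CPM in TAM Shp2f/fLysMcre, while the Y-linked Ddx3y, Eif2s3y, Kdm5d and Uty were all called lower in TAM Shp2f/fLysMcre. Each TAM Shp2f/fLysMcre library held Y-linked RNA beside Xist, with Ddx3y at 37.0, 37.3 and 43.1 CPM. Per the study's methods, males and females were used in equal number. Whether a library was a pool of both sexes was not tested. The sex of the mice and the genotype cannot be told apart for any of the 5 members, of which Cybb is the X-linked one.

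Of the cytosolic subunits, Ncf1, the organizer, was at 118, 123 and 116 CPM in Shp2f/f and at 156, 154 and 149 CPM in Shp2f/fLysMcre. Its log2 fold change of 0.36 (SE 0.0395, adjusted p = 1.94e-05) was the largest of the 5 and above that of 85.9% of the genes tested. Ncf4, whose product p40phox binds phosphatidylinositol 3-phosphate on phagosomes, was at 199, 194 and 190.3 CPM in Shp2f/f and at 208, 205 and 199.6 CPM in Shp2f/fLysMcre. The lowest Shp2f/fLysMcre library was only just above the highest Shp2f/f library, and the log2 fold change of 0.07 (SE 0.0378, adjusted p = 0.136) did not pass the test. Rac2, the GTPase, was at 213, 216 and 203 CPM in Shp2f/f and at 257, 248 and 236 CPM in Shp2f/fLysMcre, with a log2 fold change of 0.23 (SE 0.0436, adjusted p = 0.00112). All 5 members were without overlap between the genotypes, as were 58.2% of all genes in either direction and 27.7% in this one.

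All 8 macrophage markers also rose in TAM Shp2f/fLysMcre, from a summed 9110 to 9368 CPM to 12485 to 12897 CPM with none at 0, and the 7 pancreatic markers summed to 855, 1298 and 6692 CPM in TAM Shp2f/f against 18.7 to 87.2 CPM in TAM Shp2f/fLysMcre, where Cpa1 was at 0. Of the 8 neutrophil markers 7 were tested in TAM and 5 were called higher, and the list summed to 313 to 318 CPM in TAM Shp2f/f and 446 to 472 CPM in TAM Shp2f/fLysMcre, without overlap and with none at 0. Of the 7 erythroid markers 5 were tested and 3 called higher, with sums of 5.03 to 6.78 and 7.19 to 11.4 CPM in the same order. The 6 T and NK cell markers, all called lower, summed to 7.06 to 8.39 CPM in TAM Shp2f/f and 2.76 to 3.65 CPM in TAM Shp2f/fLysMcre, with none at 0. The part of these cells in the oxidase result was not tested. The 4 calls were kept when any 1 of the 6 libraries was left out, among them the Shp2f/f library with the highest pancreatic sum. In one fit of all 10 libraries, which gave MDSC and TAM a common spread, the call of Cybb was lost (log2 fold change 0.37, SE 0.168, adjusted p = 0.129) and those of Cyba, Ncf1 and Rac2 were kept. Scaling by total counts moved the median of all genes in TAM to -0.11 and the members to 0.24 for Cybb, 0.21 for Cyba, 0.26 for Ncf1, 0.13 for Rac2 and -0.026 for Ncf4, with the same 4 called.

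In MDSC the same comparison of genotypes was less certain. By edgeR, 0 of the 5 members passed at an adjusted p under 0.05, 2 had an unadjusted p under 0.05 (Ncf1 and Rac2), and DESeq2 called 1, Ncf1. Over all genes tested in MDSC, 4.28% of 14806 passed, 3.76% as higher and 0.520% as lower. The biological coefficient of variation, the typical spread between libraries of one group, was 0.189 in MDSC and 0.0595 in TAM.

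Ncf1 was at 401 and 388 CPM (scaled within MDSC) in Shp2f/f and at 658 and 538 CPM in Shp2f/fLysMcre. Its log2 fold change of 0.60 (SE 0.141, adjusted p = 0.0898, edgeR) was the largest of the 5 in MDSC as it was in TAM, and both Shp2f/fLysMcre libraries stood above both others. Rac2 was at 704 and 719.9 CPM in Shp2f/f and at 962 and 826 CPM in Shp2f/fLysMcre, with a log2 fold change of 0.33 (SE 0.129, adjusted p = 0.252), also without overlap. In MDSC, where each group had 2 libraries, 49.1% of all genes were without overlap, 24.6% in this direction, so that 2 of 5 members without overlap is near the background. Ncf4 was at 376 and 401 CPM in Shp2f/f and at 394 and 394 CPM in Shp2f/fLysMcre (log2 fold change 0.02, SE 0.112, adjusted p = 0.952).

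Cybb was at 1130.0 and 995 CPM in MDSC Shp2f/f and at 1590.3 and 881 CPM in MDSC Shp2f/fLysMcre. Replicate 1 of Shp2f/fLysMcre was thus the highest of the 4 libraries and replicate 2 the lowest, and the log2 fold change of 0.22 had an SE of 0.284 (adjusted p = 0.761, edgeR). Cyba was at 622 and 723 CPM in Shp2f/f and at 592 and 660.4 CPM in Shp2f/fLysMcre (log2 fold change -0.10, SE 0.136, adjusted p = 0.769), and its groups overlapped. The pair of membrane subunits did not follow each other here, since the library with the most Cybb had the least Cyba. The TPM ratio of Cyba to Cybb was 3.08 and 4.06 in Shp2f/f and 2.08 and 4.19 in Shp2f/fLysMcre.

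The log2 fold changes in MDSC turned on the Shp2f/fLysMcre libraries. Without replicate 2 of that group they were 0.58 for Cybb, 0.74 for Ncf1 and 0.43 for Rac2. Without replicate 1 of that group they were 0.42 for Ncf1 and -0.30 for Cybb. Each of these fits left 1 library in the group, which was assumed to vary like the other group, so only the effect sizes are given. The 6 fibroblast and tumor matrix markers summed to 551 CPM in replicate 2 and 7.80 CPM in replicate 1, against 4.27 and 22.9 CPM in Shp2f/f, with none at 0 in either group. The neutrophil markers moved with genotype, 4 of 8 called higher, and so did those of immature neutrophils, 9 of 10 called higher, with sums of 4306 and 4392 CPM in Shp2f/f and 12606 and 15275 CPM in Shp2f/fLysMcre and none at 0. The 7 erythroid markers, 5 of them called higher, summed to 216 and 246 CPM in Shp2f/f and 410.3 and 606 CPM in Shp2f/fLysMcre, with none at 0. Xist was at 1 count in each MDSC Shp2f/f library and at 139 and 124 CPM in MDSC Shp2f/fLysMcre. The Y-linked Ddx3y was at 57.5 and 53.2 CPM in MDSC Shp2f/f and at 29.3 and 23.2 CPM in MDSC Shp2f/fLysMcre. The part of these markers in the oxidase values was not tested.

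**Figure D2:**
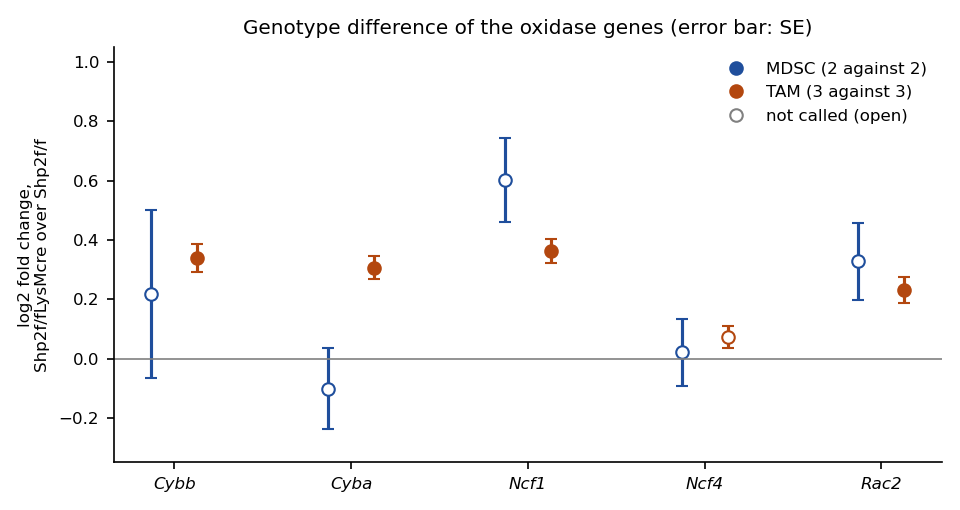
Log2 fold change of each member between Shp2f/fLysMcre and Shp2f/f in MDSC (blue) and TAM (orange), with bars of 1 SE and filled points for an adjusted p under 0.05 by edgeR. The TAM values run from 0.07 to 0.36 with short bars, while in MDSC they run from -0.10 to 0.60 with long bars and no filled point.

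An interaction term in a fit of all 10 libraries tested whether the genotype difference was itself different in TAM and in MDSC. Cyba passed, with a genotype difference higher in TAM than in MDSC by 0.44 on the log2 scale (SE 0.114, adjusted p = 0.0202, edgeR). The other 4 did not pass, with differences of 0.15 for Cybb (SE 0.264, adjusted p = 0.726), -0.21 for Ncf1 (SE 0.112, adjusted p = 0.209), 0.08 for Ncf4 (SE 0.0785, adjusted p = 0.4997) and -0.07 for Rac2 (SE 0.104, adjusted p = 0.687). Of all 16581 genes tested, 24.9% passed, 12.2% as higher. The call of Cyba did not hold when libraries were scaled by total counts (0.26, adjusted p = 0.147), where Ncf1 (-0.38, adjusted p = 0.0106) and Rac2 (-0.24, adjusted p = 0.0497) passed as lower in its place. Nor did it hold when MDSC Shp2f/f replicate 2 (0.35, adjusted p = 0.0803), TAM Shp2f/f replicate 3 (0.43, adjusted p = 0.0521) or TAM Shp2f/fLysMcre replicate 2 (0.44, adjusted p = 0.0512) was left out. Without MDSC Shp2f/fLysMcre replicate 1 the difference of Cybb passed as well (0.63, adjusted p = 0.000556), and without replicate 2 of that group that of Ncf1 (-0.34, adjusted p = 0.0134). With weights per cell type in limma voom the difference of Cyba was 0.44 (SE 0.116, adjusted p = 0.0242).

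The second axis of the design was the cell type. In Shp2f/f mice all 5 members were lower in TAM than in MDSC, and the difference ran from 0.284-fold for Cybb to 0.702-fold for Cyba. Over all genes, 69.6% of 16581 passed in this comparison and 34.6% passed as lower, and 84.5% of all genes were without overlap and 41.9% were without overlap and lower, as all 5 members were. Spleen against tumor and beads against sorting go with the cell type and cannot be told apart from it. Xist differed between the cell types too, at 1 count in each MDSC Shp2f/f library and 185 to 665 counts in the TAM Shp2f/f libraries. Of the Y-linked genes, Ddx3y was called higher in TAM, Eif2s3y and Kdm5d lower, and Uty was not called. The part of sex in the value of the X-linked Cybb was not tested. On the common scale of 10 libraries, Cybb averaged 1012 ± 90.8 CPM (SD, n = 2) in MDSC Shp2f/f and 287 ± 10.9 CPM (n = 3) in TAM Shp2f/f, a log2 fold change of -1.82 (SE 0.185, adjusted p = 1.31e-05, edgeR). Rac2 (-1.66, SE 0.0726, adjusted p = 2.33e-08) and Ncf1 (-1.63, SE 0.0786, adjusted p = 4.83e-08) were lower by nearly as much. Ncf4 was lower by a smaller amount (-0.90, SE 0.0548, adjusted p = 2.73e-07), and Cyba by the least (-0.51, SE 0.0798, adjusted p = 0.000277).

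In Shp2f/fLysMcre mice 4 members were lower in TAM than in MDSC, Cybb (-1.66, SE 0.185, adjusted p = 2.51e-05), Ncf1 (-1.84, SE 0.0786, adjusted p = 1.99e-08), Ncf4 (-0.82, SE 0.0548, adjusted p = 5.62e-07) and Rac2 (-1.73, SE 0.0726, adjusted p = 1.75e-08). Cyba averaged 599 ± 53.0 CPM (SD, n = 2) in MDSC and 569.8 ± 21.9 CPM (n = 3) in TAM, the libraries overlapped, and the log2 fold change of -0.07 (SE 0.0804, adjusted p = 0.436) did not pass. With total counts as the scale, which moved the median of all genes to -0.26, Cyba was called lower (-0.27, adjusted p = 0.0167). Over all genes 68.9% passed in this comparison, 36.6% as lower. Of all genes, 76.1% were without overlap and 40.0% were without overlap and lower, as 4 members were. In both genotypes Cyba differed least between the cell types, while the member that differed most was Cybb in Shp2f/f and Ncf1 in Shp2f/fLysMcre. As a result the TPM ratio of Cyba to Cybb was 2.08 to 4.19 over the 4 MDSC libraries and 7.78 to 9.22 over the 6 TAM libraries.

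Ratios of 2 genes within a library do not depend on the scaling between libraries, and 3 were drawn up after the values had been seen, as descriptions with no test. The TPM ratio of Ncf4 to Ncf1, both cytosolic, was 1.70 and 1.87 in MDSC Shp2f/f and 1.09 and 1.33 in MDSC Shp2f/fLysMcre. In TAM it was 2.85 to 3.05 in Shp2f/f and 2.41 to 2.43 in Shp2f/fLysMcre, so it was lower in Shp2f/fLysMcre in both cell types with no overlap. Rac2 was set against Rac1, the GTPase of the same family that is found in most cells. Their TPM ratio was 1.65 and 1.66 in MDSC Shp2f/f, 2.65 and 2.41 in MDSC Shp2f/fLysMcre, 0.638 to 0.715 in TAM Shp2f/f and 0.701 to 0.726 in TAM Shp2f/fLysMcre. Rac2 was thus the more abundant of the pair in all 4 MDSC libraries and Rac1 in all 6 TAM libraries, and the genotypes differed without overlap in MDSC but overlapped in TAM. Among single genes, 49.1% in MDSC and 58.2% in TAM were without overlap between the genotypes. The share over ratios of other pairs was not worked out.

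**Figure D3:**
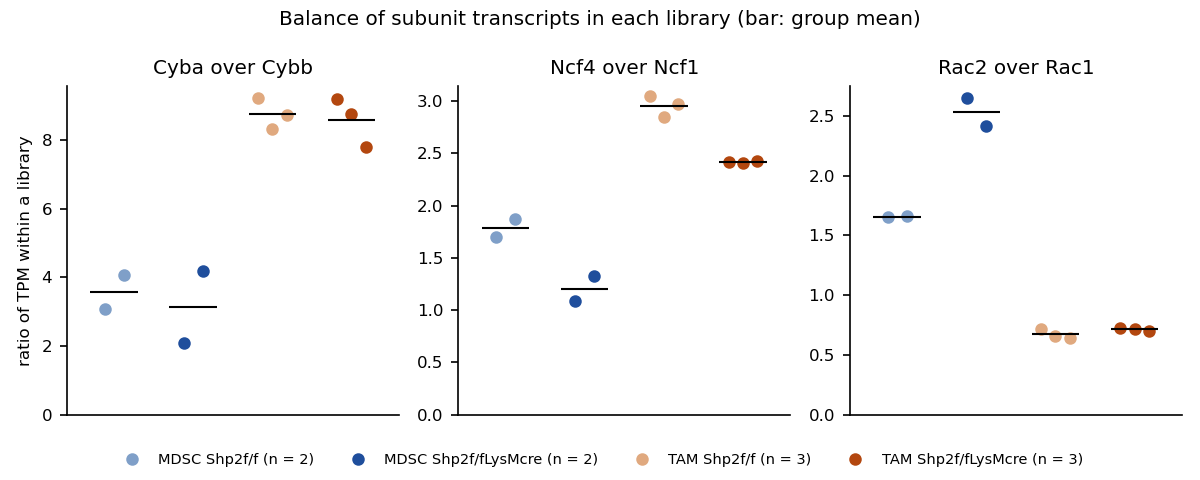
Ratio of the TPM of 2 genes within each library, on linear axes from 0, with 1 point per library and a bar at the group mean. Cyba over Cybb is higher in TAM (7.78 to 9.22) than in MDSC (2.08 to 4.19), Ncf4 over Ncf1 is lower in Shp2f/fLysMcre in both cell types, and Rac2 over Rac1 is above 1 only in MDSC.

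Other genes of NADPH oxidases were looked at as a list of 11, of which 3 were tested in MDSC and 5 in TAM. Rac1, the GTPase related to Rac2, was at 617 and 627 CPM in MDSC Shp2f/f and at 526 and 495 CPM in MDSC Shp2f/fLysMcre (-0.28, SE 0.113, adjusted p = 0.253). In TAM Rac1 was at 431, 472 and 461 CPM in Shp2f/f and at 512, 504 and 487 CPM in Shp2f/fLysMcre, without overlap. It rose by 0.14 (SE 0.0432, adjusted p = 0.0186), a call that was lost with total-count scaling (0.04, adjusted p = 0.384), with no filter on low counts (0.13, adjusted p = 0.0838) and without TAM Shp2f/f replicate 1 (0.10, adjusted p = 0.0988) or TAM Shp2f/fLysMcre replicate 2 (0.14, adjusted p = 0.0676). Cybc1, the chaperone needed to make gp91phox, was at 86.7 to 88.2 CPM in TAM Shp2f/f and 103 to 111 CPM in TAM Shp2f/fLysMcre, and rose by 0.30 (SE 0.0391, adjusted p = 6.96e-05), close to the values of Cybb and Cyba. In MDSC it did not pass (-0.11, SE 0.111, adjusted p = 0.693, edgeR). With Rac1 and Noxo1 this made 0 of 3 called there by edgeR, beside 4.28% of all genes. Of the 3, 1 was at an unadjusted p under 0.05 and DESeq2 called 0.

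The genes of the other NADPH oxidases were near the floor. Nox1, the catalytic subunit best known from colon, was at 21, 21 and 25 counts in TAM Shp2f/f and 4, 7 and 8 counts in TAM Shp2f/fLysMcre (log2 fold change -1.59, SE 0.356, adjusted p = 0.00302), and Duoxa1, a maturation factor of the dual oxidases, at 31, 13 and 24 against 7, 8 and 8 counts (-1.36, SE 0.416, adjusted p = 0.0175). Both were lower in TAM Shp2f/fLysMcre at levels below 1 CPM, and only 1 of the pair was called without TAM Shp2f/f replicate 1 or without TAM Shp2f/fLysMcre replicate 1 or 2. In MDSC Nox1 had 0 counts in all 4 libraries and Duoxa1 0 or 1. Noxo1, the organizer paired with Nox1, was at 1.17 to 2.16 CPM over the 10 libraries and was not called by genotype. Nox3, Nox4, Noxa1, Duox1, Duox2 and Duoxa2 had 0 to 6 counts in every library.

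Genes that switch the oxidase on, such as kinases of p47phox, exchange factors for Rac and the proton channel, formed a list of 15. In TAM 13 were called higher and 1 lower, beside 23.9% and 26.3% of all genes, and the list's median log2 fold change was 0.25. Vav3, a Rac exchange factor, rose the most, from 75.6 ± 1.76 CPM (SD, n = 3) to 114 ± 5.40 CPM (n = 3), by 0.59 (SE 0.0429, adjusted p = 8.55e-07), and Pak1, a kinase that acts downstream of Rac, was the one that fell (-0.24, SE 0.0381, adjusted p = 0.000361). In MDSC 1 of 15 was called, Hvcn1, the proton channel that offsets the charge moved by the oxidase. Its mean went from 13.5 ± 2.43 to 50.9 ± 16.7 CPM (SD, n = 2 each), a rise of 1.91 (SE 0.264, adjusted p = 0.0250), beside 3.76% of all genes called higher. The call was lost with no filter on low counts (adjusted p = 0.0652, edgeR). It was also lost without replicate 1 or 2 of MDSC Shp2f/f, where nearly all calls of the comparison were lost, so that loss is not particular to Hvcn1. In TAM Hvcn1 rose as well (0.51, SE 0.0395, adjusted p = 1.57e-06).

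Genes that supply NADPH, the electron donor, did not move one way. Of 7 in TAM, 2 were called higher and 3 lower, beside 23.9% and 26.3% of all genes, with a median of -0.06. With total-count scaling 5 were lower. Idh1, the cytosolic isocitrate dehydrogenase, rose by 0.46 (SE 0.0547, adjusted p = 3.75e-05), and Tkt, the transketolase of the pentose phosphate pathway, fell by 0.28 on the log2 scale (SE 0.0486, adjusted p = 0.000534). In MDSC 0 of 6 were called by edgeR, beside 4.28% of all genes. Of the 6, 1 had an unadjusted p under 0.05 and DESeq2 called 0. Genes for the handling of superoxide and peroxide, not all of which remove them directly (Hmox1 does not), were also mixed in TAM. Of these, 7 of 20 were called higher and 6 lower, beside 23.9% and 26.3% of all genes, and 3 were higher with total-count scaling. Hmox1, heme oxygenase, rose from 335 ± 5.55 to 868 ± 61.3 CPM (SD, n = 3 each), by 1.37 (SE 0.05002, adjusted p = 8.26e-09), while Sod1, the cytosolic superoxide dismutase, fell by 0.44 on the log2 scale (SE 0.0504, adjusted p = 2.62e-05). In MDSC 0 of 19 were called by edgeR, beside 4.28% of all genes. Of the 19, 4 had an unadjusted p under 0.05 and DESeq2 called 1.

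Of 7 transcription factors known to act on oxidase genes, 4 were called higher in TAM and 0 lower, beside 23.9% and 26.3% of all genes, and the 4 of 7 called in either direction are near the 50.2% of all genes. Cebpa, a factor of early myeloid differentiation, rose the most, from 63.9 ± 2.53 to 122 ± 4.20 CPM (SD, n = 3 each), by 0.94 (SE 0.0427, adjusted p = 3.83e-08). Spi1, which encodes PU.1, was not among them (0.04, SE 0.0429, adjusted p = 0.472). In MDSC 1 of 7 was called, beside 4.28% of all genes. The one called was Cebpe, a factor of granulocyte maturation that is also on the immature neutrophil list. Its mean went from 14.6 ± 1.74 to 55.7 ± 12.5 CPM (SD, n = 2 each), a rise of 1.93 (SE 0.195, adjusted p = 0.0183, edgeR). This call too was lost without replicate 1 or 2 of MDSC Shp2f/f, as were nearly all calls of the comparison.

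**Figure D4:**
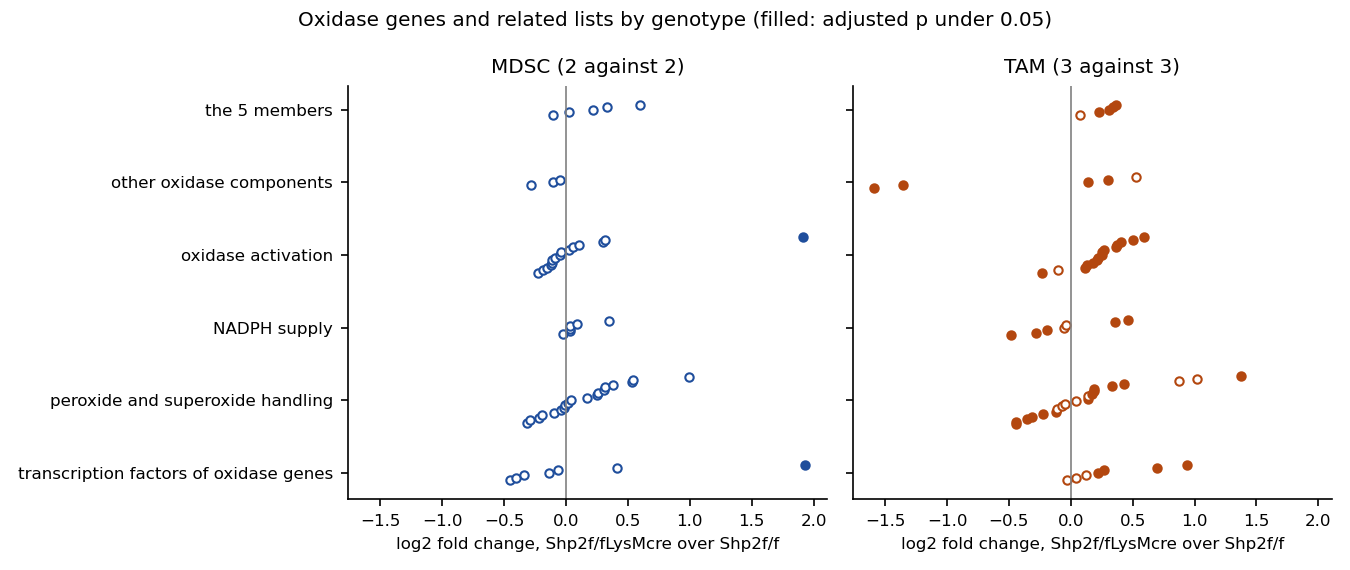
Log2 fold change between Shp2f/fLysMcre and Shp2f/f for each tested gene of the 5 members and 5 related lists, in MDSC on the left and TAM on the right, with filled points for an adjusted p under 0.05 by edgeR. In TAM most points of the members and of the activation list lie to the right of 0 and are filled, while in MDSC the 2 filled points are Hvcn1 and Cebpe.

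Levels of the members were correlated over the 10 libraries as a description, since libraries of one group share their cell type and genotype. Of the 10 pairs of members, Pearson's r of log2 CPM was highest for Ncf1 with Rac2 (0.994) and lowest for Cybb with Cyba (0.693). Within the 6 TAM libraries, which share the step between genotypes, the 10 pairs ran from 0.763 to 0.982, and Cybb with Cyba was at 0.899. Within the 4 MDSC libraries the pairs ran from -0.802 for Cybb with Cyba to 0.989 for Ncf1 with Rac2. Cyba was there also at -0.613 with Ncf1 and -0.571 with Rac2, and at 0.575 with Ncf4. Among the 8844 other genes compared, those most like Cybb were Slc25a12 (r = 0.996) and Mocs1 (r = 0.996), and those most like Ncf1 were R3hdm4 (r = 0.998) and Sc5d (r = 0.998). For Ncf4 they were Arhgap9 (r = 0.999) and Arhgdib (r = 0.999), and for Rac2 Tmc8 (r = 0.998) was among them. Cyba, whose level differed least between the cell types, had the least close neighbours, Ppt2 (r = 0.988) and Lsm10 (r = 0.980).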

How the data were processed

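RNA from 4 MDSC and 6 TAM samples was poly(A)-selected and sequenced as paired 42-nt reads. Per the labels and the methods, the authors trimmed reads with cutadapt 2.5, aligned them with STAR 2.7.3a to GRCm38 and counted Ensembl release 98 genes with featureCounts (Subread 1.6.2). They deposited raw counts, whole reads per gene and not normalized. A second table, counts divided by DESeq2 1.24.0 size factors, was not used. Groups came from the sample titles. Symbols and exon lengths came from GENCODE on GRCm38, which matched 99.67% of identifiers.

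Counts were filtered with filterByExpr (minimum count 10), scaled by TMM and tested with edgeR 4.0.16 in R 4.3.3 (quasi-likelihood F test, two-sided, Benjamini-Hochberg over all genes tested, called at an adjusted p under 0.05). Genotypes were compared within each cell type. The interaction and the comparisons of cell types used 1 fit of 4 groups over all 10 libraries, treated as independent. Per the methods TAM came from the same mice as MDSC, but which libraries share a mouse is not stated, so this could not be modelled. TPM used the union of exons. DESeq2 1.42.0, limma 3.58.1 (voom) and other scalings and filters were alternatives. The code was tested on simulated data. The counts per library, 28844660 to 38222998 leave a counting error that is not always small beside the spread between libraries (Ncf4 in MDSC Shp2f/fLysMcre differed by less than it).

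The members, lists and tests were chosen with earlier results of these data known. The text names all members and, per list and cell type, the called gene with a mean of at least 10 CPM that rose most and fell most, every detected gene of the list of other oxidase genes, and the 2 genes most correlated with each member. Some genes under this rule are not reported here, and list counts leave them out. Hvcn1 in TAM, Spi1, Lyz2 and the 3 ratios were added after their values were seen. Same-numbered libraries are not stated to share animals. The correlation of their deviations was 0.293 for MDSC, and -0.133, 0.0512 and 0.0220 for TAM.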

Additional observations from a re-analysis of the deposited data

Results flagged for a closer look

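One result met a rule for a closer look, a genotype difference that was itself different between the cell types. The difference of Cyba between Shp2f/fLysMcre and Shp2f/f was higher in TAM than in MDSC by 0.44 on the log2 scale (interaction in edgeR over 10 libraries, adjusted p = 0.0202). Of all genes, 24.9% passed this test, 12.2% as higher. Cyba was higher in Shp2f/fLysMcre in 3 of 3 TAM libraries, as were 27.7% of all genes without overlap, and it overlapped between genotypes in MDSC. The call was lost with total-count scaling. It was also lost without MDSC Shp2f/f replicate 2, TAM Shp2f/f replicate 3 or TAM Shp2f/fLysMcre replicate 2. Groups of 2 and 3 libraries are too small for the check on samples that stand apart.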

How the results depend on the processing

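The 4 calls in TAM were kept under all alternatives except one fit of all 10 libraries, which called 3 members and 4837 genes in TAM against 7257. TAM against MDSC called 5 members in Shp2f/f under every alternative. In MDSC the count of members called, 0, became 1 with total counts, DESeq2 or the replicate block, and 2 in one fit of all 10 libraries. Genes called in MDSC, 633, became 130 with no filter, 1256 by DESeq2, 2674 with the replicate block and 2666 in one fit of all 10 libraries. Leaving out 1 library gave 0 to 3 members and 1 to 4406 genes in MDSC, with 1 gene left without replicate 1 or replicate 2 of Shp2f/f, 4406 without replicate 1 of Shp2f/fLysMcre and 2729 without its replicate 2. For the interaction it gave 0 to 2 members and 2446 to 7023 genes against 4132, and total counts gave 2 members, Ncf1 and Rac2 as lower, without Cyba. With the replicate block the member called in MDSC was Ncf1 (log2 fold change 0.59, adjusted p = 0.00299), and the block kept the count of members called in the other comparisons. Its numbers are not shown to pair the samples, so it is given as an alternative.

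Total counts took the share of calls that were higher from 47.6% to 30.9% in TAM, from 49.1% to 28.3% in the interaction, where the median of all genes moved to -0.18, and from 46.8% to 36.6% in TAM against MDSC in Shp2f/fLysMcre. Among the members, the values that reversed were not called in either fit. With total counts, Ncf4 (-0.026) reversed in TAM, and Cybb (-0.0052) and Ncf4 (-0.092) in the interaction. Leaving out 1 library gave -0.30 to 0.58 for Cybb, -0.21 to 0.0098 for Cyba and -0.028 to 0.067 for Ncf4 in MDSC. It gave -0.21 to 0.63 for Cybb and -0.17 to 0.041 for Rac2 in the interaction, and -0.15 to 0.016 for Cyba in TAM against MDSC in Shp2f/fLysMcre. The longest transcript as length moved the ratio of Cyba to Cybb from 8.75 to 9.999 in TAM Shp2f/f and from 8.58 to 9.80 in TAM Shp2f/fLysMcre. Where no construction of the alternative shows it, the cause was not tested.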
